A study of Oryctolagus cuniculus with 8 samples.

Results

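Rabbit lungs with a surgically made congenital diaphragmatic hernia (CDH) and no treprostinil were set against control lungs, in 5 of the 8 libraries of the series. The 5 were chosen by their titles and comprise 3 CDH lungs and 2 control lungs. All 5 carry placebo as their treatment label, and the title calls them unexposed. The remaining 3 libraries are CDH lungs exposed to treprostinil, a prostacyclin analogue, on gestational day 24 (term is day 31). They enter here through the shared estimate of spread, the filter on level and the scaling of totals, and as values beside named genes. The breed, what was done to control animals, how many animals were used and when lungs were taken were not given in the sources used here. Each title opens with a code: 61 for placebo CDH replicates 1 and 2, 56 for placebo CDH replicate 3, and 83 for both controls. No code holds CDH and control lungs, so hernia and code cannot be told apart.

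In CDH, abdominal organs enter the chest through an opening in the diaphragm while the lung is still branching. The lung stays small, its airspaces are simplified, and its small arteries develop thick muscular walls that leave the newborn with pulmonary hypertension. In the surgical rabbit model the diaphragm of the fetus is opened. Bulk RNA from such a lung mixes epithelium, vessels, connective tissue and blood cells, so fewer cells of a type and less RNA per cell cannot be told apart.

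The count table names genes by Ensembl ID alone, and 0 of its 23669 IDs could be paired with a symbol. Genes are therefore described by their levels, and only the 2 leading IDs in each direction are named. Markers of cell types or of RNA quality could not be read for the same reason, so the tissue label was not checked and the part of such differences in the results was not tested. Total counts ran from 9367924 (placebo CDH replicate 2) to 20510373 (control replicate 2). Levels are given as CPM, counts relative to a library's total, with the totals scaled on nuclear IDs only.

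A run of 37 consecutively numbered IDs, ENSOCUG00000029081 to ENSOCUG00000029117, was set apart before anything else was compared. The choice of these IDs takes them for the genes of the mitochondrial genome, the small circular chromosome that encodes part of the respiratory chain together with its own ribosomal and transfer RNAs. The levels in placebo CDH lungs bear on that label. There 22 of the 37 IDs stayed under 100 CPM, as they did in controls. These 22 sat at the 22 positions that transfer RNA genes take in the order common to placental mammals. The other 15 IDs, with a mean above 100 CPM in placebo CDH lungs, sat at the positions of its other genes. In controls only 5 of these 15, at positions 2, 4, 6, 10 and 16, had a mean above 100 CPM. The other 10 averaged 10.8 CPM or less there, so in controls the cut does not set them apart from the 22. No single member is given a gene name here. The run took 2.61%, 2.35% and 2.03% of all counts in placebo CDH replicates 1 to 3 and 0.643% and 0.632% in the controls. The means were 2.33% ± 0.289 (SD, n = 3) and 0.637% ± 0.00778 (SD, n = 2). Both groups stood apart, and the exact permutation test, two-sided, gave p = 0.1 with n = 5 libraries, the smallest value that 3 against 2 libraries allow. Any 2 groups of this size that do not overlap give that value. The run was also chosen with earlier results of these data known, so nothing is read from the test.

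The difference within the run was split by position. At positions 2, 4, 6, 10 and 16, abundant members were present in both groups, and their placebo CDH means were 1.44 to 2.85 times the control means. Their summed level was 12985, 12436 and 9840 CPM in placebo CDH replicates 1 to 3, and 6456 and 6575 CPM in the controls. From position 19 to 35, the 10 abundant members were at a mean of 231 to 2104 CPM in placebo CDH lungs and nearly absent in controls. Their summed level was 13619, 11466 and 10504 CPM in the placebo CDH libraries against 16.4 and 15.01 CPM in the controls. Of these 10, the member at position 33 had 201 and 202 counts in the controls, and the other 9 had 1 to 22 counts per control library. The ratio of pooled placebo CDH to pooled control levels was 66.5 at position 33 and 986 to 5791 for the other 9. These are ratios of deposited counts. The submitters' processing notes name the build OryCun2.0, but the annotation release and the counting program were not given. The sources used here thus do not say whether reads of all libraries were counted against the same annotation. Whether the ratios stand for RNA levels in the lung was therefore not tested. In the exposed CDH libraries the same 10 members summed to 79.2, 34.4 and 28.2 CPM, and the 5 earlier members to 6695, 7239 and 6947 CPM. On both sides of the split the exposed lungs thus lay nearer to control than to placebo CDH lungs.

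**Figure D1:**
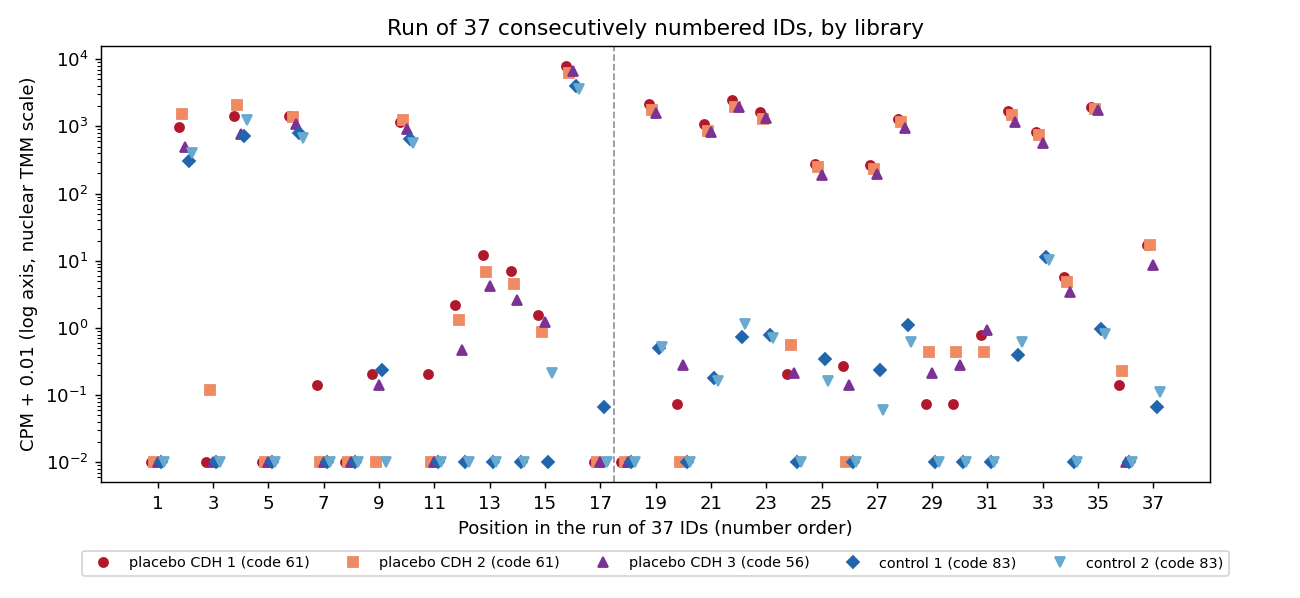
Level of each of the 37 IDs of the run (log axis, CPM with 0.01 added so that 0 can be drawn) by position, with 1 symbol per library; the dashed line only separates the earlier from the later members. Abundant members up to position 16 are present at 309 CPM or more in all 5 libraries, while from position 19 on the abundant members have the 3 placebo CDH libraries at 186 CPM or more and the 2 controls far below.

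Among the 22 tested members of the run, 19 (86.4%) were higher in placebo CDH lungs (edgeR, quasi-likelihood, adjusted p under 0.05 by Benjamini-Hochberg over all 14507 IDs tested), beside 0.718% of the nuclear IDs tested, and 0 were lower. The run was singled out for this contrast, so nothing is read from that share. All 10 abundant later members were called, with edgeR adjusted p between 2.61e-06 and 0.000454. They had been grouped as abundant by their placebo CDH level, so nothing is read from all 10 being called. Of the 5 earlier members, those at positions 6, 10 and 16 were called, with log2 fold changes of 0.81, 0.87 and 0.86 (standard errors 0.13, 0.13 and 0.13; edgeR adjusted p = 0.0238, 0.0177 and 0.0218). Position 16 holds the most abundant member of the run, at 7986, 6215 and 6562 CPM in placebo CDH replicates 1 to 3 and 3986 and 3665 CPM in the controls. The members at positions 2 and 4 did not pass, with log2 differences of 1.51 and 0.52 (edgeR adjusted p = 0.107 and 0.541). At position 2 the level was 988, 1553 and 487 CPM in the placebo CDH libraries and 309 and 399 CPM in the controls. At position 4, where the groups overlapped, it was 1432, 2076 and 773 CPM against 720 and 1263 CPM. Both members were lowest, among the placebo CDH libraries, in the library of code 56. With code 56 alone as the CDH group, log2 differences at positions 2, 4, 6, 10 and 16 were 0.46, -0.36, 0.56, 0.62 and 0.78, and with code 61 alone they were 1.84, 0.82, 0.92, 0.97 and 0.89. None of the 5 was called with code 56 alone, a fit that assumes the single library varies like the others. With code 61 alone the members at positions 2, 6, 10 and 16 were called (edgeR adjusted p = 0.0172, 0.00824, 0.00635 and 0.0255) and the one at position 4 was not (adjusted p = 0.186). The calls at positions 6, 10 and 16 were kept in 11, 13 and 13 of 18 alternatives. All 3 were lost with the replicate block, without control replicate 1, without control replicate 2 and with code 56 alone. The call at position 6 was also lost without placebo CDH replicate 1 or 2, that at position 10 without placebo CDH replicate 2, and those at positions 6 and 16 with only the 5 libraries compared. In the fits that lost a call, edgeR adjusted p was at most 0.166.

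Low members of the run also differed. Of the 22, 4 had no count in any of the 5 libraries, and 14 had counts in placebo CDH lungs and none in either control. Several of the 14 held very few counts and were not tested. At position 3 the only count was 1, in placebo CDH replicate 2. The share of nuclear IDs with this pattern was not counted, so nothing is read from the 14. The members at positions 12, 13 and 14, which lie on the earlier side, had 34, 190 and 110 counts in placebo CDH replicate 1, 12, 62 and 41 in replicate 2, and 7, 62 and 39 in replicate 3, against 0 in both controls. The same absence in controls was thus seen before position 19, but at low levels. Because the run's mean share of counts was 3.66 times as large in placebo CDH as in control libraries, library sizes were taken from the other 23632 IDs, called nuclear below. Including the run in the library sizes moved the median log2 change of nuclear IDs by less than 0.01 and gave 312 nuclear calls in place of 316.

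Outside the run, 316 nuclear IDs had different levels in placebo CDH and in control lungs, 2.18% of the 14485 tested (edgeR, same test and threshold). More of them were lower in CDH lungs: 212 were lower (1.46% of the IDs tested) and 104 were higher (0.718%). The higher IDs changed by a median fold of 1.86 (quartiles 1.47 and 3.18) and the lower IDs by 1.64 (quartiles 1.41 and 2.26). A log2 change of 1 or more, that is a doubling or a halving, was reached by 44 higher and 64 lower IDs, and a log2 change of 3 or more by 11 and 13. At the other end, 30 higher and 85 lower IDs changed by less than 1.5-fold. In all 316 the 3 CDH libraries lay on one side of both controls, as they did for 35.2% of all nuclear IDs tested. The limit given for the run holds here as well: a shared annotation for all libraries is not stated. Whether these differences in deposited counts stand for RNA levels in the lung was not tested.

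**Figure D2:**
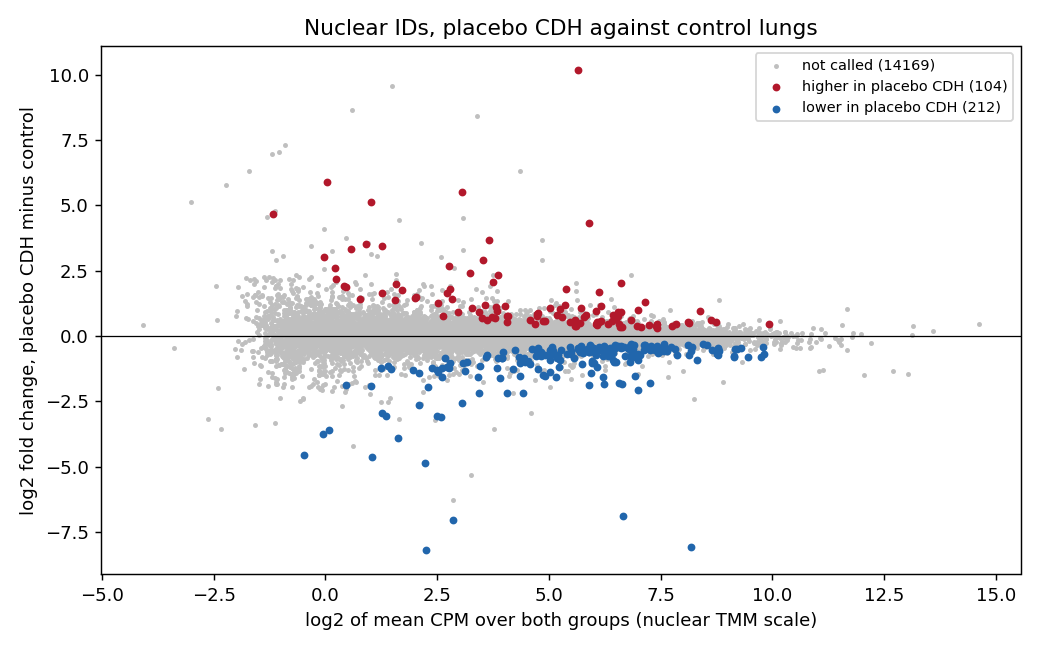
Log2 fold change of placebo CDH over control lungs against log2 of the mean CPM of both groups, for the 14485 nuclear IDs tested, 1 point per ID. The 104 higher (red) and 212 lower (blue) IDs reach smaller fold changes at higher levels, and several grey points with large changes at low levels were not called.

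In a library's nuclear counts, the called IDs held a small part. The 212 lower IDs held 2.96% and 2.73% of the nuclear counts in the controls, and 1.77%, 1.80% and 1.91% in placebo CDH replicates 1 to 3. The 104 higher IDs held 0.562% and 0.544% in the controls, and 0.918%, 0.920% and 0.917% in the CDH libraries. In absolute share, the loss was therefore larger than the gain. These shares describe IDs chosen on the same contrast and carry no test. Of the 100 nuclear IDs with the highest mean level (829 CPM or more), which together held 21.3% of nuclear counts in CDH and 22.03% in control lungs, 4 were called, 1 higher and 3 lower, against 2.18% over all IDs. None of these 4 changed by more than 0.81 on the log2 scale.

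The rises and falls below are ordered by fold, among called IDs that averaged at least 5 CPM in the higher group and whose libraries did not overlap. The ID that led the rises was absent or nearly absent in control lungs. ENSOCUG00000024282 stood at 114, 96.1 and 93.1 CPM in placebo CDH replicates 1 to 3 and at 0.168 and 0 CPM in the controls. In counts these were 1754, 885 and 1389 reads against 3 and 0. All CDH libraries were high and both controls were at or under 3 counts. The pooled ratio was 1277, with a 95% interval of 437 to 6195 (exact binomial, Clopper-Pearson, covering counting error only), and the fit gave a log2 fold change of 10.18 ± 0.32 (standard error, edgeR adjusted p = 1.84e-06). That fold rests on few control counts: the log2 fold change was 13.74 without control replicate 1 and 9.17 without control replicate 2, and the call was kept in both fits. The exposed CDH lungs held 92.8 ± 3.63 CPM (SD, n = 3), so each of the 6 CDH libraries of the series carried this transcript.

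ENSOCUG00000022043 followed, at 19.4, 16.4 and 12.7 CPM in placebo CDH replicates 1 to 3 and at 0.391 and 0.305 CPM in the controls, where it had 7 and 6 counts. Its log2 fold change was 5.52 ± 0.38 (standard error, edgeR adjusted p = 0.000266). The third ID in this order was more abundant, at 92.4, 93.5 and 157 CPM in CDH lungs against 6.53 and 4.78 CPM, a 20.3-fold difference (edgeR adjusted p = 0.000556). Code 56 held the highest value here, while for ENSOCUG00000022043 it held the lowest of the 3. All of these libraries stayed well above both controls.

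Further down the order the CDH libraries spread more widely. The fourth and the fifth ID stood at 36.7, 16.8 and 16.8 CPM and at 35.2, 12.2 and 13.9 CPM in placebo CDH replicates 1 to 3, against 2.01 and 1.63 CPM and 3.13 and 2.34 CPM in the controls. Replicate 1 was above the other CDH libraries by more than 2 times in both. Their folds were 12.9 and 7.53 (edgeR adjusted p = 0.00751 and 0.0252). The eighth ID was even across libraries, at 25.7, 25.2 and 22.1 CPM against 4.19 and 5.29 CPM, a 5.11-fold difference with a standard error of 0.17 on the log2 scale (edgeR adjusted p = 0.00029). The tenth was the most abundant among the first 12, at 224, 90.8 and 159 CPM against 36.9 and 40.5 CPM, with a fold of 4.10 (edgeR adjusted p = 0.0296). The 12 leading rises, within the limits on level and overlap given above, thus ended at a fold of 3.49.

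Falls were led by an ID that was close to absent in CDH lungs. ENSOCUG00000022894 had 0, 0 and 1 counts in placebo CDH replicates 1 to 3 and 160 and 198 counts in the controls, or 0, 0 and 0.067 CPM against 8.94 and 10.1 CPM. The pooled ratio of control to CDH was 376, with an exact binomial 95% interval of 67.1 to 14908 for counting error alone, and the fitted log2 fold change was -8.19 ± 0.66 (standard error, edgeR adjusted p = 0.000596). It was -10.36 without placebo CDH replicate 3, which holds the single count, and -7.01 with that library alone as the CDH group, and the call was kept in both fits. Exposed CDH lungs had 3, 0 and 1 counts. Both kinds of CDH lung were thus near 0 for this ID.

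ENSOCUG00000026762 was far more abundant, at 588 and 564 CPM in the controls and 2.28, 1.63 and 2.34 CPM in placebo CDH replicates 1 to 3. Its log2 fold change was -8.07 ± 0.14 (standard error, edgeR adjusted p = 3.19e-08). The entry on the neighbouring line of the table, the fourth in the order of falls, stood at 213 and 189 CPM in controls and at 2.02, 1.30 and 1.61 CPM in CDH lungs (log2 fold change -6.89 ± 0.14, edgeR adjusted p = 7.12e-08). Together this pair held 801 and 753 CPM in the controls and 4.30, 2.93 and 3.95 CPM in the placebo CDH libraries. In the exposed CDH libraries it held 863, 824 and 746 CPM. The pair was thus low in the same 3 libraries in which the later members of the run were high, under both title codes, and a link between them was not tested.

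**Figure D3:**
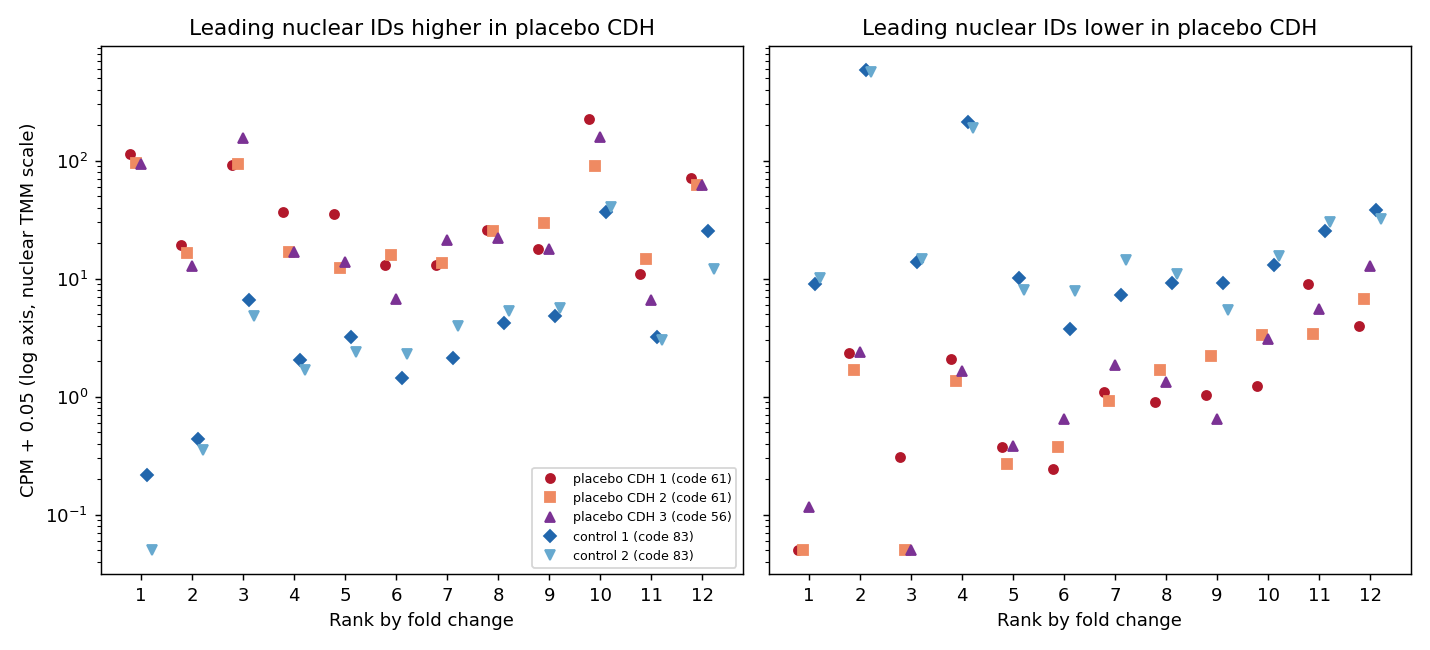
Level (log axis, CPM with 0.05 added) of the 12 called nuclear IDs with the largest fold change in each direction among those at 5 CPM or more in the higher group and without overlap, with 1 symbol per library. On the left the 3 placebo CDH libraries lie above both controls at every rank, and on the right below them; ranks 2 and 4 on the right are the pair at 564 to 588 and 189 to 213 CPM in controls.

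Other leading falls started from lower levels. The third in the order had 4, 0 and 0 counts in placebo CDH replicates 1 to 3 against 248 and 289 in the controls, and the fifth had 5, 2 and 5 against 181 and 156. Both were near 0 in all placebo CDH libraries. The eighth stood at 0.846, 1.63 and 1.27 CPM in CDH lungs and at 9.10 and 10.9 CPM in controls, an 8.22-fold fall (edgeR adjusted p = 0.000556), and at 13.9 ± 1.55 CPM (SD, n = 3) in exposed lungs. The sixth and the seventh differed between the controls, at 3.69 and 7.83 CPM and at 7.20 and 14.5 CPM. In each of them control replicate 2 was about 2 times control replicate 1, yet both stayed above every CDH library.

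Some falls from a higher level were very even between libraries. The following IDs were picked with their values in view, from called IDs with a mean of 50 CPM or more in the higher group that lie beyond the first 14 of the order in their direction; those first 14 hold the pair on neighbouring lines and other abundant IDs. One stood at 114 and 122 CPM in the controls and at 30.6, 36.2 and 33.5 CPM in placebo CDH replicates 1 to 3, a 3.53-fold fall (log2 fold change -1.82 ± 0.10, edgeR adjusted p = 7.27e-05). Another stood at 136 and 158 CPM against 42.5, 37.4 and 46.4 CPM, a 3.49-fold fall, and 1 more at 52.6 and 54.3 CPM against 19.2, 16.5 and 17.95 CPM, a 2.98-fold fall (edgeR adjusted p = 0.000189 and 9.84e-05). In these 3 IDs the CDH libraries of both codes lay within a narrow band. A fall of like size was less even: 109 and 79.5 CPM in controls against 13.8, 23.1 and 39.7 CPM, where the library of code 56 was nearest to control (3.69-fold, edgeR adjusted p = 0.0343).

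With a mean of 50 CPM or more in the higher group, 50 IDs were called higher and 131 lower. Over all nuclear IDs tested, 0.718% were called higher and 1.46% lower, and the number tested at this level was not counted. A doubling or a halving was reached by 10 of the 50 and by 17 of the 131. Among the rises, chosen as the falls above, 1 ID stood at 190, 174 and 238 CPM in CDH lungs and at 63.7 and 99.3 CPM in controls, a 2.46-fold rise (edgeR adjusted p = 0.0238). A more even one stood at 163, 181 and 162 CPM against 87.5 and 81.7 CPM, a 1.99-fold rise with a standard error of 0.12 on the log2 scale (edgeR adjusted p = 0.00709). In both, the 3 CDH libraries lay above the 2 controls.

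The share of IDs called grew with their level. It was 0.37% of the 1080 IDs under 1 CPM, 1.43% of 2243 between 1 and 5 CPM, 1.68% of 3334 between 5 and 20 CPM, 2.56% of 5514 between 20 and 100 CPM and 3.59% of 2314 at 100 CPM or more. Higher and lower calls were equal in number up to 5 CPM (18 each over both lowest classes), and lower calls outnumbered higher ones by 98 to 43 and by 66 to 17 in the 2 most abundant classes. The median standard error fell along the same classes from 0.54 to 0.08 on the log2 scale. The smallest change that was called fell with it, from 3.02 under 1 CPM to 0.28 at 100 CPM or more. Small changes in rare transcripts were thus not called with these libraries, and the part of depth in this was not tested.

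**Figure D4:**
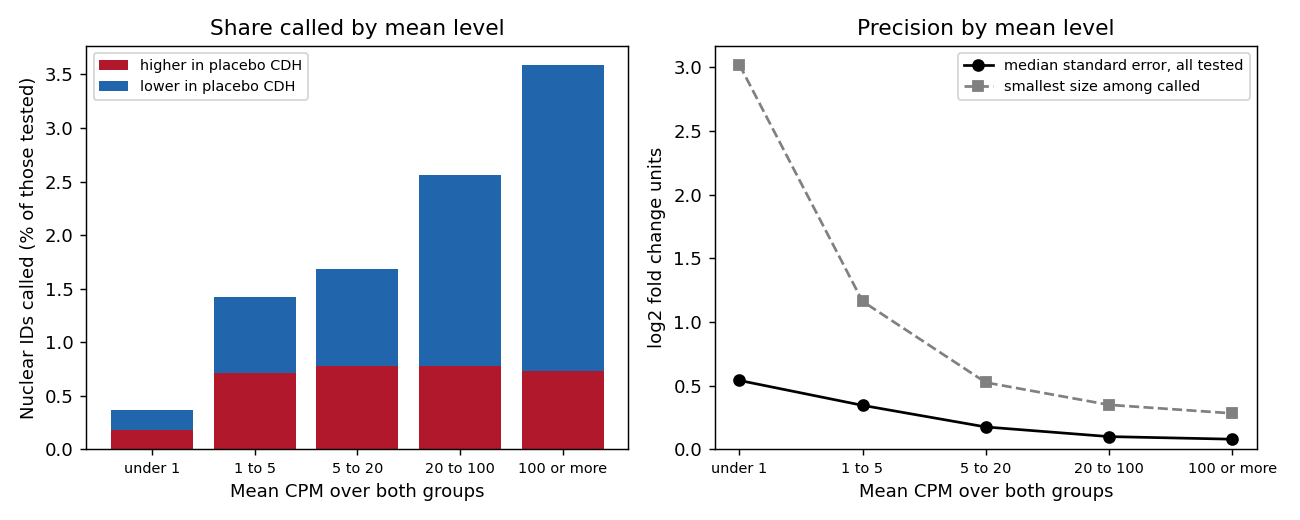
Left, percent of nuclear IDs called in 5 classes of mean CPM, stacked by direction; right, median standard error of the log2 fold change over all IDs tested (circles) and the smallest absolute log2 change among those called (squares) in the same classes. The share called rises from 0.37% to 3.59% while the median standard error falls from 0.54 to 0.08.

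For most of the nuclear IDs that were not called, a large difference lay outside the interval. Of 14169 such IDs, 10961 (77.4%) had a 95% interval of the log2 difference that stayed within a doubling or halving, and 8089 stayed within 1.5-fold. These intervals are not adjusted for the number of IDs. The other 3208 had intervals that reached a 2-fold change, so such a change cannot be told from none. Among the not-called IDs, 522 had an estimated change of 2-fold or more, at a median of 1.24 CPM, and in 362 of them the libraries did not overlap, beside 35.2% of all nuclear IDs tested. These 522 were picked by their fold on the same contrast, so nothing is read from that count.

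Many IDs with very large estimated changes were not called. Of 61 nuclear IDs with an estimated log2 change of 3 or more, 24 were called and 37 were not. In 24 of the 37, libraries within placebo CDH or within control differed by at least 3-fold (with 0.5 CPM added), which was the case in 0 of the 24 called. The test divides by such spread, so this contrast was largely fixed by how calls are made, and no cause is read from it. One not-called ID with such a spread had 2, 84 and 114 counts in placebo CDH replicates 1 to 3 and another 1, 46 and 60, with 0 in both controls. They had 167, 210 and 121 and 210, 76 and 52 counts in the exposed CDH libraries. In both, replicate 1 lay near the controls, and replicate 2, of the same code 61, did not. Another had 12, 2 and 24 counts in CDH lungs and 0 in controls. On the other side, 1 ID had 4 and 47 counts in the controls and 0 in all 3 placebo CDH libraries. These 4 were the only nuclear IDs with counts in every library of 1 group, 0 in the other and a mean of 10 counts or more. None of the 4 was called. They were sought among all nuclear IDs, before the filter on level, so an ID can be uncalled because it was not tested. The ID with 4 and 47 control counts was low in every library but 1.

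The code 56 library was compared with the code 61 libraries because both codes stand for placebo CDH. On the first principal component of nuclear log2 CPM over the 5 libraries, which held 44.9% of the variance, placebo CDH replicates 1 to 3 lay at -24.7, -20.9 and -9.39 and the controls at 27.2 and 27.8. Replicate 3, of code 56, was thus the CDH library nearest to control. The median absolute log2 difference from it to the controls was 0.174 and 0.162, and to the other CDH libraries 0.176 and 0.162. For replicates 1 and 2 the difference to the controls was 0.188 to 0.197, above the 0.154 between them. Over the 316 called IDs the median log2 difference from control was 0.92, 0.88 and 0.84 for higher IDs in replicates 1 to 3, and -0.70, -0.71 and -0.65 for lower IDs. The fold was larger with code 61 alone than with code 56 alone in 63 of 104 higher and 137 of 212 lower IDs. In 1 of the 316 the change with code 56 alone was under 0.5 times that with code 61 alone. The called IDs were chosen with all 3 libraries, so their direction in each is a description.

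The number of calls depended on which libraries were fitted. With code 61 alone (without placebo CDH replicate 3) 437 nuclear IDs were called, and with code 56 alone, an alternative added after seeing the data, 45. Without placebo CDH replicate 1 or 2 the count was 166 or 76, and without control replicate 1 or 2 it was 45 or 43. It was 176 without exposed CDH replicate 3, a library outside the compared groups that enters through the shared spread, the filter and the scaling. With 1 control left, that library is assumed to vary like the other groups.

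**Figure D5:**
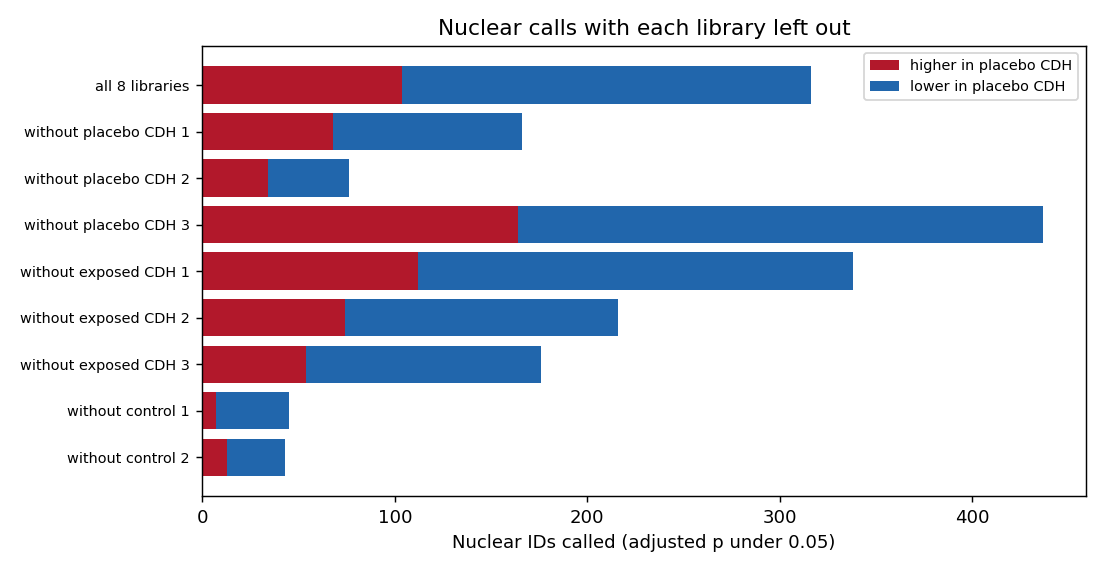
Number of nuclear calls, placebo CDH against control, with all 8 libraries and with each library left out in turn, stacked by direction. The count runs from 43 without control replicate 2 to 437 without placebo CDH replicate 3, against 316 with all libraries.

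A smaller set was called under each alternative that tested it, 19 in all. It held 14 nuclear IDs, 4 higher and 10 lower in placebo CDH lungs, all at 5 CPM or more in the higher group. The 4 rises were ENSOCUG00000024282, ENSOCUG00000022043 and the third and the eighth ID in the order of rises. The 10 falls were ENSOCUG00000022894 and ENSOCUG00000026762, the third, the fourth, the fifth and the eighth ID in the order of falls, the 3 even falls of 3.53-, 3.49- and 2.98-fold, and 1 smaller fall. The last stood at 153 and 155 CPM in controls and at 94.7, 92.8 and 81 CPM in placebo CDH replicates 1 to 3, a 1.72-fold difference with a standard error of 0.08 on the log2 scale (edgeR adjusted p = 0.00322). Exposed CDH lungs held 129, 127 and 118 CPM of it, between both groups. Every other nuclear call was lost, or its ID was not tested, under at least 1 alternative.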

How the data were processed

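Lung RNA was extracted with an RNeasy kit (labels' protocols). The authors deposited raw counts per Ensembl gene ID, without normalization. Trimmomatic 0.36, STAR 2.5.2b, DESeq2 and the build OryCun2.0 stand in the submitters' processing notes. The counting program, annotation release, strand setting and treatment of multi-mapping reads were not given in the sources used here, so reads of overlapping or near-identical genes can be split or lost.

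Counts were analysed with edgeR 4.0.16 (R 4.3.3): filterByExpr (14507 IDs), library sizes and TMM factors from nuclear IDs, 1 quasi-likelihood model of all 8 libraries and 3 groups, Benjamini-Hochberg adjustment over all IDs tested, calls under 0.05. Standard errors come from the F statistic. The fit was tested on simulated data. Named IDs are the 2 called nuclear IDs per direction with the largest fold among those whose higher group averaged 5 CPM or more and whose libraries did not overlap, which 89 higher and 201 lower IDs met. The 14 gene lists and 15 marker lists that had been drawn up by symbol could not be matched to any ID: the RefSeq table at hand (assembly mOryCun1.1) lists no Ensembl ID. Libraries, IDs of the run and lists were chosen with earlier results of these data known. No pair of libraries within a group was a duplicate: chi-square per degree of freedom was 11.4 to 55.7. Pairs across groups were not compared in this way. No label ties a library to its own animal, so p-values reflect the spread between these libraries alone, and that may be technical. Alternatives were RLE scaling, all-ID library sizes, other filters, DESeq2 1.42.0, limma 3.58.1 voom, fewer libraries and a replicate block.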

Additional observations from a re-analysis of the deposited data

How the results depend on the processing

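Each of the 316 nuclear calls had the same direction under each alternative in which it was tested, which the absence of overlap between libraries largely fixed. All-ID library sizes, RLE scaling, both other filters, limma voom and the fits without the run or without the pair of neighbouring IDs left the nuclear count within 1.5 times (290 to 419). DESeq2 called 882 nuclear IDs, among them all 316. Other sets of libraries and the block moved the count: it was 187 with only the 5 libraries compared, 74 with the last number of the title code as a replicate block, 45 with code 56 alone and 43 to 437 with 1 library left out. Of the run, 11 members were called with code 56 alone and 12 to 19 with 1 library left out. The cause of these shifts was not tested. No label says that the block number pairs libraries. Deviations of same-numbered placebo CDH and control libraries correlated at -0.05 to 0.03. With 2 controls the control deviations mirror each other, so these values cannot decide whether libraries are paired. With 2 controls and 9367924 counts in the shallowest library, changes under about 3 on the log2 scale were not called below 1 CPM.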
